A study of Homo sapiens with 12 samples.

Results

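The genes of the YAP and TEAD transcription module were followed through 3 small interfering RNA (siRNA) knockdowns of citrate metabolism genes in MiaPaCa-2 cells. These cells are an established human pancreatic cancer line. The 10 module genes were taken by name for their roles, with earlier results of these data known. They were the coactivators YAP1 and WWTR1 (the protein TAZ), the DNA-binding factors TEAD1 and TEAD4, and the kinase LATS2. The upstream regulators AMOTL2 and AJUBA and the targets CCN1, CCN2 and ANKRD1 completed the set. All 10 were found by symbol among the 70116 rows of the count table, and 9 had enough reads to be tested. ANKRD1 did not.

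In the Hippo pathway, MST kinases with their scaffolds activate LATS kinases, which phosphorylate YAP and TAZ and keep them out of the nucleus. When LATS is inactive, YAP and TAZ enter the nucleus and bind TEAD factors, which carry no strong activator of their own, and the complex switches on genes such as CCN1, CCN2, ANKRD1, AMOTL2, AJUBA and LATS2. Several targets are also brakes, since LATS2 and AMOTL2 restrain YAP and TAZ, whereas AJUBA is an inhibitor of LATS. In pancreatic tumours YAP is known as a driver of growth and matrix signalling. Most of this control acts on protein phosphorylation and location, neither of which is measured by RNA.

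Poly(A) RNA was sequenced from 4 groups of 3 libraries each: cells transfected with a control siRNA (siControl), or with siRNA against SLC25A1 (the mitochondrial citrate carrier), ACLY (ATP citrate lyase, which cleaves citrate to acetyl-CoA in the cytosol) or ACO1 (cytosolic aconitase, also an iron-responsive RNA-binding protein). No genetic allele is named in any group, all 4 groups were transfected, and the labels give neither the siRNA sequences and their number per target, nor the time after transfection, nor whether replicates were separate cultures, so p-values measure the spread between these libraries, which may be technical. Only 1 cell line was used. Levels are given in CPM (a gene's counts over the scaled total of its library, times 1000000), as mean ± SD with n = 3, and changes as log2 fold changes with the standard error (SE). A gene is said to rise or fall, or to be called, where edgeR's quasi-likelihood test over 16197 genes gave a Benjamini-Hochberg adjusted p under 0.05. Counts of called genes in a list are read against the share of all tested genes that was called. The members and lists were chosen with earlier results of these data known, so these counts are a description and not a test.

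Each targeted gene was low in its own knockdown. SLC25A1 stood at 8.75% of siControl, ACLY at 7.24% and ACO1 at 3.72%. The libraries held between 24159424 and 43792811 counts, and siACO1 replicate 3 stood apart from its replicates more than any other library did, with a chi-square per degree of freedom of 11.9 and 12.6 against 2.31 to 5.85 for the other replicate pairs. The cells carried KRT8 at 1263 to 2436 CPM, KRT18 at 750.2 to 1345 CPM and VIM at 3472 to 4813 CPM, while the epithelial markers EPCAM, CDH1 and KRT7 did not pass 0.357 CPM in any library. The mesenchymal marker CDH2 did not pass 0.0715 CPM. Immune and endothelial markers were also near 0, with summed levels of at most 0.201 and 0.427 CPM, and of 6 fibroblast markers only COL1A2 was high. In a list of 41 genes that nearly every cell uses, written after the counts were seen, 5 (ACTG1, LDHA, POLR2A, RPS18 and TUBB) had at most 14 counts in any library, against at least 181 for the other 36. A count near 0 in this table therefore need not mean a silent gene, which bears on ANKRD1 and CCN2 below. Bulk RNA also cannot separate a change within each cell from a change in the share of cells that express a gene.

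Sequences upstream of the members are shown because the motif bound by TEAD factors, GGAATG on either strand, can be read in them. RefSeq promoters (GRCh38.p14, 250 bases before to 50 after a start site, written on the gene's strand) were matched for 7 of the 10 genes, in 10 promoters. None was available for CCN1, TEAD1 and TEAD4, which were not searched. The motif lay in promoters of 6 of these 7 genes and in 6 of the 10 promoters, against 4928 of 35116 promoters of the same length. The CCN2 promoter held 3 matches, a number reached by 0.128% of promoters, and the ANKRD1 promoter held 2. A match is a description of the letters and not evidence of binding. The promoters of the classical targets CCN2 and ANKRD1, of the feedback gene AMOTL2 and of YAP1 itself are printed with the matches to GGAATG or its reverse complement CATTCC in capitals, 5′ to 3′.
CCN2, chr6:131951323-131951622, reverse strand: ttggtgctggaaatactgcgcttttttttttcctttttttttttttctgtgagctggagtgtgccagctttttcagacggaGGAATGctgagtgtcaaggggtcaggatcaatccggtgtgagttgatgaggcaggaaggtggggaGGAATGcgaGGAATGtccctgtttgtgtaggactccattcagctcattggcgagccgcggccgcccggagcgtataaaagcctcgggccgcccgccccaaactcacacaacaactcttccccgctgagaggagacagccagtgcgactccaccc
ANKRD1, chr10:90921038-90921337, reverse strand: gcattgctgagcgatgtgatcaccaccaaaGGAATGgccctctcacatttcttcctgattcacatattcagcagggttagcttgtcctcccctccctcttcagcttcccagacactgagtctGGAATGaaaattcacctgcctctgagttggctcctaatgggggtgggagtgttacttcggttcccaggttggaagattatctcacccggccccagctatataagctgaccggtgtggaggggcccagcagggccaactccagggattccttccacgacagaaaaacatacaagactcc
AMOTL2, chr3:134374398-134374697, reverse strand: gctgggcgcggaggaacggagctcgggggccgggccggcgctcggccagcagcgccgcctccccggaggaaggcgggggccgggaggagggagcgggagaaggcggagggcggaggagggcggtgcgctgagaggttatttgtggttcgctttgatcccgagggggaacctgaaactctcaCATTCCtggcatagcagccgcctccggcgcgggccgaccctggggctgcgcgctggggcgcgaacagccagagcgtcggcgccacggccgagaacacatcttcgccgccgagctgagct
YAP1, chr11:102110197-102110496, forward strand: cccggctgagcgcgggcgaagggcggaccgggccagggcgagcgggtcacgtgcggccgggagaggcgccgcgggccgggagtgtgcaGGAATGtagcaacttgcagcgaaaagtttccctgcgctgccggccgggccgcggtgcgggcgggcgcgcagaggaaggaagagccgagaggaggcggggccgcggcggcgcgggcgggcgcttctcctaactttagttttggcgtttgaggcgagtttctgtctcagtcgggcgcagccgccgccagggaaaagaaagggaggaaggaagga

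In CCN2 the 3 matches began 169, 104 and 95 bases before the start site, so that the last pair lay 3 bases apart. In ANKRD1 they began 220 and 128 bases before it. A match to the AP-1 pattern TGANTCA, in which N is any base, lay between them, 195 bases before. Its letters were TGATTCA. No other member promoter held a match to TGANTCA, which occurs in 7.71% of promoters. AMOTL2 had its match 69 bases before one of its start sites and YAP1 had it 162 bases before. AJUBA also had a match, 59 bases before one of its start sites, and LATS2 had one from 10 to 15 bases after its start. Neither of the 2 WWTR1 promoters held one. Among the other gene lists used below, the TEAD motif lay in promoters of 4 of 21 Hippo pathway components. It lay in promoters of 5 of 12 other YAP and TEAD targets. It also lay in 4 of 12 genes of the actin programme driven by serum response factor (SRF). The SRF motif, the CArG box, lay in 6 of those 12 genes and in none of the 7 members with a promoter. Over all genes with a promoter, 16.7% held the TEAD motif.

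The members were compared with siControl in each knockdown, and the 3 comparisons share the same 3 siControl libraries. Under siSLC25A1, 7 of the 9 tested members were called, 3 higher (CCN1, CCN2 and TEAD1) and 4 lower (WWTR1, TEAD4, AMOTL2 and AJUBA), while 19.6% of all genes were called, 10.3% higher and 9.27% lower. This count fell to 4 without siControl replicate 1. Under siACLY, 6 were called, with CCN1 higher and YAP1, TEAD4, LATS2, AMOTL2 and AJUBA lower, where 36.7% of all genes were called, 18.4% higher and 18.3% lower. Under siACO1, 6 were called, all lower (YAP1, WWTR1, TEAD4, LATS2, AMOTL2 and CCN1), where 37.1% of all genes were called, 17.8% higher and 19.3% lower. In each of the 3 comparisons the libraries of 8 of the 9 members did not overlap those of siControl, as was so for 37.1%, 50.5% and 46.3% of all genes in the order given. The median log2 change of the 9 members was 0.03 under siSLC25A1, -0.14 under siACLY and -0.45 under siACO1, against -0.00, 0.01 and 0.01 over all tested genes. Scaling by library totals moved the higher share of all calls from 50.1% to 61.0% under siACLY and from 47.9% to 59.5% under siACO1, with a shift of the median gene to 0.05 in both. TEAD4 and AMOTL2 were called lower in all 3 comparisons, and CCN1 was called in all 3 but not in 1 direction.

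**Figure D1:**
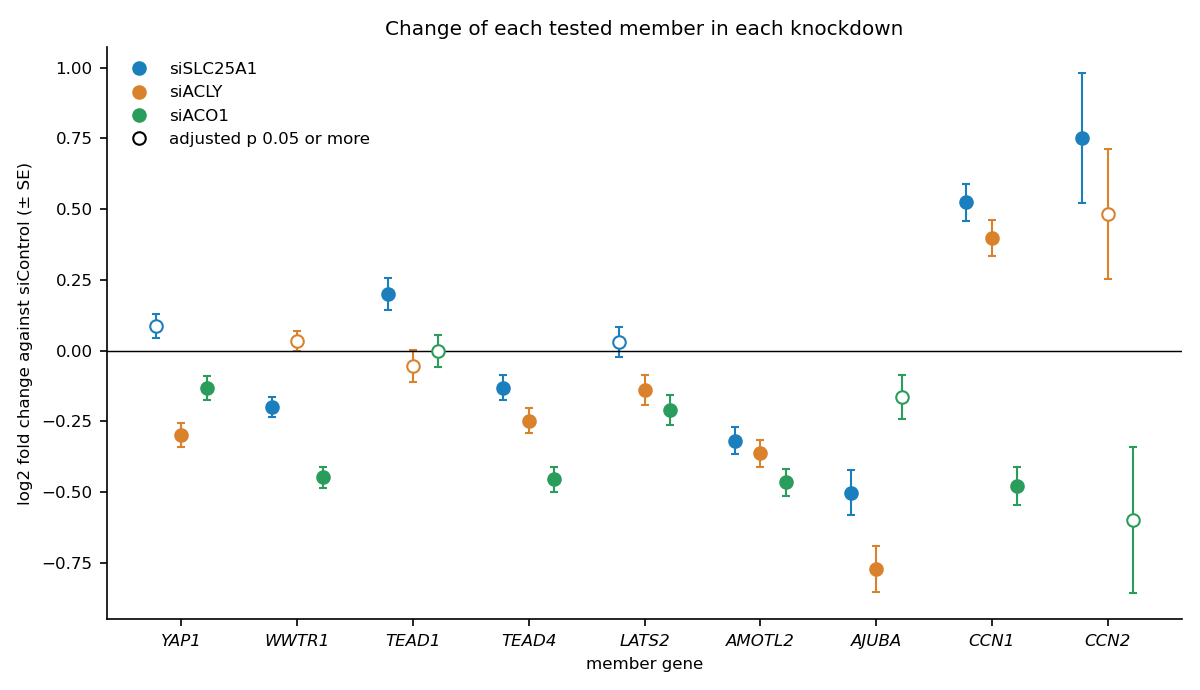
Log2 fold change against siControl (y axis) of the 9 tested members (x axis) in each knockdown, coloured by siRNA, with bars of 1 SE from the edgeR fit over all 12 libraries; filled points have an adjusted p under 0.05. AMOTL2 and TEAD4 lie below 0 in each knockdown, and CCN1 lies above 0 under siSLC25A1 and siACLY and below it under siACO1.

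Per kilobase of exon, the members of the siControl libraries ran from WWTR1 at 43.2 ± 0.273 CPM per kilobase (SD, n = 3), through TEAD4 at 41.6 ± 0.656, CCN1 at 37.9 ± 4.16, AMOTL2 at 30.1 ± 1.38, YAP1 at 21.2 ± 0.402, TEAD1 at 14.9 ± 0.638 and LATS2 at 11.2 ± 0.323, to AJUBA at 4.08 ± 0.15 and CCN2 at 0.578 ± 0.0766. ANKRD1 came last at 0.0248 CPM per kilobase. By the spread between libraries alone, TEAD4 and CCN1 did not differ and every other pair of neighbours did. That spread does not cover differences between genes in the exon length used or in counting. The order of close levels, such as WWTR1 and TEAD4, is therefore uncertain. WWTR1 was about double YAP1 on this length-corrected scale. Exons shared with an antisense gene make up 9.45% of WWTR1 and 9.97% of YAP1. The strand setting of the counting is not given in the sources used here, so these levels hold with that reservation.

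YAP1 (chr11:102110461-102233423, GRCh38), the transcriptional coactivator held in check by LATS, fell under siACLY and siACO1. Its levels were 131, 136 and 132 CPM in siControl, 141, 139 and 145 in siSLC25A1, 112, 108 and 105 in siACLY, and 119, 127 and 119 in siACO1. The siACLY and siACO1 libraries all lay below the control range and the siSLC25A1 libraries all above it. The log2 change was -0.30 (SE 0.04, edgeR adjusted p = 1.64e-06) under siACLY. Under siACO1 it was -0.13 (SE 0.04, adjusted p = 0.0134), a call lost with library totals as the scaling (-0.08, adjusted p = 0.139) and when siControl replicate 2 or siACO1 replicate 1 was left out (adjusted p = 0.062 and 0.056). Under siSLC25A1 it was 0.09 (SE 0.04, adjusted p = 0.15), which was not called.

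WWTR1 (chr3:149517235-149736714), which encodes the second coactivator TAZ, fell under siACO1 and siSLC25A1 but was not called under siACLY. It stood at 363, 366 and 361 CPM in siControl, 317, 311 and 320 in siSLC25A1, 369, 373 and 373 in siACLY, and 265, 267 and 266 in siACO1. The 4 groups did not overlap. The fall was to 73.3% of siControl under siACO1 (log2 change -0.45, SE 0.04, edgeR adjusted p = 5.37e-11) and to 87.1% under siSLC25A1 (-0.20, SE 0.04, adjusted p = 0.000145). Under siACLY the change was 0.03 (adjusted p = 0.495).

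The paralogous coactivators thus changed by unequal amounts: both fell under siACO1, WWTR1 by more, while under siSLC25A1 only WWTR1 and under siACLY only YAP1 was called. The ratio of WWTR1 to YAP1 counts within a library was 2.73 ± 0.0375 in siControl (SD, n = 3), 2.23 ± 0.0235 in siSLC25A1, 3.44 ± 0.124 in siACLY and 2.19 ± 0.0676 in siACO1. The siACLY libraries, at 3.30 to 3.54, lay above the control range of 2.68 to 2.76, and all 6 siSLC25A1 and siACO1 libraries lay below it, between 2.11 and 2.26. These ratios do not depend on the scaling between libraries.

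**Figure D2:**
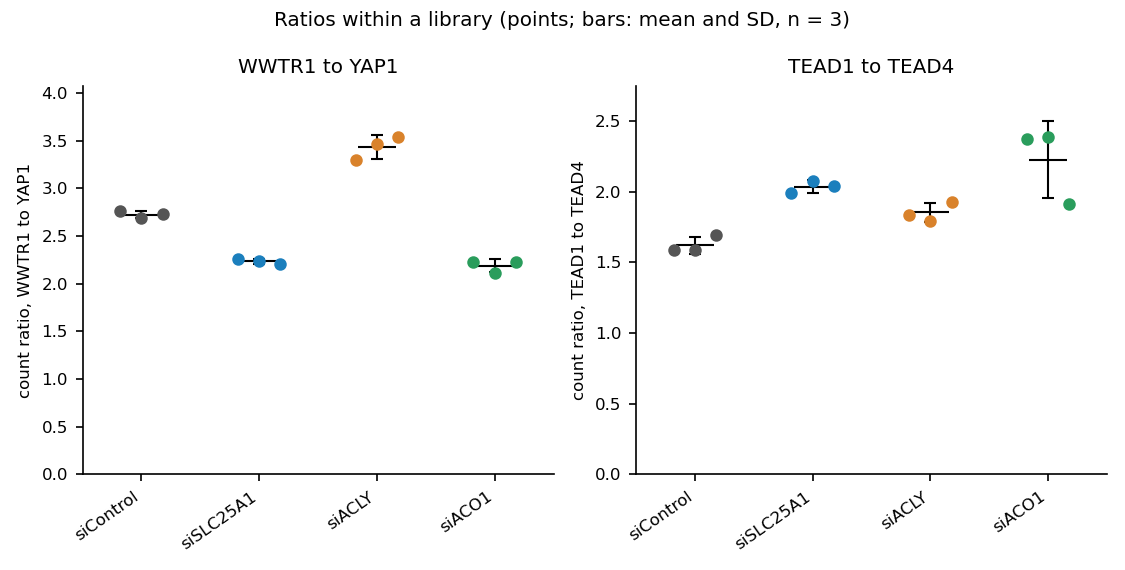
Ratios of counts within each library (y axis, from 0) for WWTR1 to YAP1 and TEAD1 to TEAD4, by siRNA group (x axis); points are libraries and the black line and bar are the mean and SD of 3. The WWTR1 to YAP1 ratio runs from 2.19 in siACO1 to 3.44 in siACLY with 2.73 in siControl.

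TEAD4 (chr12:2959330-3040673), a TEAD factor that brings YAP and TAZ to DNA, fell in all 3 knockdowns. Its levels were 95.9, 92.9 and 94.6 CPM in siControl, 89.4, 86.3 and 83.1 in siSLC25A1, 79.9, 79.4 and 79.3 in siACLY, and 69.5, 66.9 and 70.4 in siACO1. The groups formed 4 separate steps with siACO1 lowest. The log2 change was -0.45 under siACO1 (73.0% of siControl, edgeR adjusted p = 2.03e-09), -0.25 under siACLY (adjusted p = 4.19e-05) and -0.13 under siSLC25A1 (adjusted p = 0.0344). The last was lost when any siControl library, or siSLC25A1 replicate 2 or 3, was left out (adjusted p = 0.0542 to 0.168). It was also lost with no count filter (adjusted p = 0.0727).

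TEAD1 (chr11:12674591-12944483), its paralog, was higher under siSLC25A1. Its levels were 152, 147 and 160 CPM in siControl, 178, 179 and 169 in siSLC25A1, 147, 142 and 153 in siACLY, and 165, 160 and 135 in siACO1. The siSLC25A1 libraries all lay above the control range, with a log2 change of 0.20 (SE 0.06, edgeR adjusted p = 0.0143) that was lost when siControl replicate 1 or 2, or siSLC25A1 replicate 1 or 2, was left out (0.17 to 0.19, adjusted p = 0.054 to 0.0765). Under siACLY and siACO1 the changes were -0.05 (adjusted p = 0.488) and -0.00 (adjusted p = 0.999), the latter from libraries above, within and below the control range, with siACO1 replicate 3 lowest. The TEAD1 to TEAD4 ratio was 1.62 ± 0.062 in siControl, 2.04 ± 0.0433 in siSLC25A1, 1.85 ± 0.069 in siACLY and 2.22 ± 0.271 in siACO1 (SD, n = 3), and all 9 knockdown libraries lay above the control libraries.

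The remaining TEAD paralogs showed a larger change under siACLY. TEAD2 fell from 34.8 to 16.6 CPM there (log2 change -1.07, edgeR adjusted p = 1.2e-12), the largest change of any Hippo component in that comparison, and also fell under siACO1 (-0.32, adjusted p = 0.000455) and siSLC25A1 (-0.22, adjusted p = 0.0206, lost without siControl replicate 3 or siSLC25A1 replicate 1 or 2, with adjusted p = 0.0541 to 0.127). TEAD3 fell under siACLY only among the 3 comparisons (-0.41, adjusted p = 5.94e-05), with -0.14 (adjusted p = 0.201) under siSLC25A1 and -0.07 (adjusted p = 0.514) under siACO1. Under siACLY, 3 of the 4 TEAD genes were thus called lower, with TEAD1 the exception, where 18.3% of all genes were called lower.

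LATS2 (chr13:20973032-21061547), the kinase that phosphorylates YAP and TAZ and is itself a target of theirs, had small changes. It stood at 64.4, 60.9 and 62.1 CPM in siControl, 64.8, 63.5 and 63.0 in siSLC25A1, 55.5, 56.8 and 58.0 in siACLY, and 55.6, 57.2 and 49.4 in siACO1. The siACLY and siACO1 libraries lay below the control libraries, and siSLC25A1 overlapped them. The change was -0.21 (edgeR adjusted p = 0.00204) under siACO1, -0.14 (adjusted p = 0.0352) under siACLY and 0.03 (adjusted p = 0.747) under siSLC25A1. Under siACO1, where replicate 3 was lowest, the change ran from -0.26 to -0.15 with 1 library left out and stayed called. The siACLY call was lost with siControl replicate 1 or 3, or siACLY replicate 1 or 2, left out (adjusted p = 0.0603 to 0.138), and with library totals (-0.10). Its paralog LATS1 was called lower under siACLY (-0.14, adjusted p = 0.0348), a call lost in the same 4 left-out runs, and was not called under siSLC25A1 (-0.08) or siACO1 (-0.08).

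AMOTL2 (chr3:134355874-134375479), an angiomotin family scaffold that binds YAP and activates LATS, and a YAP target, fell in all 3 knockdowns. Its levels were 187, 171 and 181 CPM in siControl, 156, 137 and 140 in siSLC25A1, 140, 140 and 140 in siACLY, and 135, 133 and 124 in siACO1. No knockdown library reached the control range. AMOTL2 stood at 80.2% of siControl under siSLC25A1 (log2 change -0.32, edgeR adjusted p = 1.04e-05), 77.7% under siACLY (-0.36, adjusted p = 4.57e-07) and 72.5% under siACO1 (-0.47, adjusted p = 5.47e-09). AMOTL1, a paralog at 5.37 CPM in siControl, fell only in the siACO1 comparison among the 3 (-0.51, adjusted p = 0.00186), and AMOT was at 0 counts in all 12 libraries.

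AJUBA (chr14:22971174-22982642), a LIM-domain protein that binds and inhibits LATS kinases, fell most under siACLY. Its levels were 23.81, 24.004 and 25.45 CPM in siControl, 18.7, 16.2 and 16.6 in siSLC25A1, 14.97, 15.56 and 12.18 in siACLY, and 22.3, 22.4 and 20.7 in siACO1. Every knockdown library lay below the control range, those of siACO1 only just. The log2 change was -0.77 under siACLY (58.3% of siControl, SE 0.08, edgeR adjusted p = 1.04e-08), -0.50 under siSLC25A1 (70.4%, adjusted p = 2.97e-05) and -0.16 under siACO1 (adjusted p = 0.0987, not called). Its LIM-domain paralogs LIMD1 and WTIP fell under siACLY (-0.36, adjusted p = 6.98e-05, and -0.31, adjusted p = 5.6e-05) and siACO1 (-0.37, adjusted p = 5.66e-05, and -0.17, adjusted p = 0.017), and neither was called under siSLC25A1. The WTIP call under siACO1 was lost without siControl replicate 1 or 3 or siACO1 replicate 2 (adjusted p = 0.0776 to 0.126), and with library totals (adjusted p = 0.0848).

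CCN1 (chr1:85580761-85583962), a secreted matricellular protein and a standard readout of YAP activity, rose under siSLC25A1 and siACLY and fell under siACO1. It stood at 104, 83.7 and 91.6 CPM in siControl, 145, 131 and 126 in siSLC25A1, 121, 120 and 127 in siACLY, and 68.9, 63.5 and 68.2 in siACO1. Each knockdown was clear of the control range. The level was 144% of siControl under siSLC25A1 (log2 change 0.52, SE 0.06, edgeR adjusted p = 5.85e-06), 132% under siACLY (0.40, SE 0.06, adjusted p = 5.63e-05) and 71.8% under siACO1 (-0.48, SE 0.07, adjusted p = 8.8e-06). The fall under siACO1 does not rest on siACO1 replicate 3, whose value lay between those of the other libraries of its group.

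CCN2 (chr6:131948176-131951373), also called CTGF, a secreted growth-factor-binding protein, ran in the same order of groups, at 20 to 75 counts per library. Its levels were 1.14, 1.44 and 1.47 CPM in siControl, 2.62, 2.01 and 2.16 in siSLC25A1, 1.53, 2.29 and 1.93 in siACLY, and 0.885, 0.650 and 1.12 in siACO1. The siSLC25A1 and siACLY libraries lay above the control range and the siACO1 libraries below it. The increase under siSLC25A1 was called (log2 change 0.75, SE 0.23, edgeR adjusted p = 0.0188) and was lost without siControl replicate 1 (0.64, adjusted p = 0.0978) or siSLC25A1 replicate 1 (0.63, adjusted p = 0.103). The change was 0.48 (adjusted p = 0.102) under siACLY and -0.60 (adjusted p = 0.0684) under siACO1, neither called, the latter being called without siACO1 replicate 3 (-0.83, adjusted p = 0.0255). Exons shared with a gene on the opposite strand make up 8.34% of CCN2.

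ANKRD1 (chr10:90912096-90921276), a nuclear ankyrin-repeat protein used with CCN1 and CCN2 as a YAP readout, had 13 counts in all. It had 2, 2 and 1 counts in siControl, 1, 0 and 0 in siSLC25A1, 0, 0 and 3 in siACLY, and 1, 0 and 3 in siACO1, and was at 0 in 5 of 12 libraries. No library exceeded 3 counts, which corresponds to 0.0685 to 0.124 CPM depending on its total, so that no difference was detectable at this depth and no fold change is given.

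**Figure D3:**
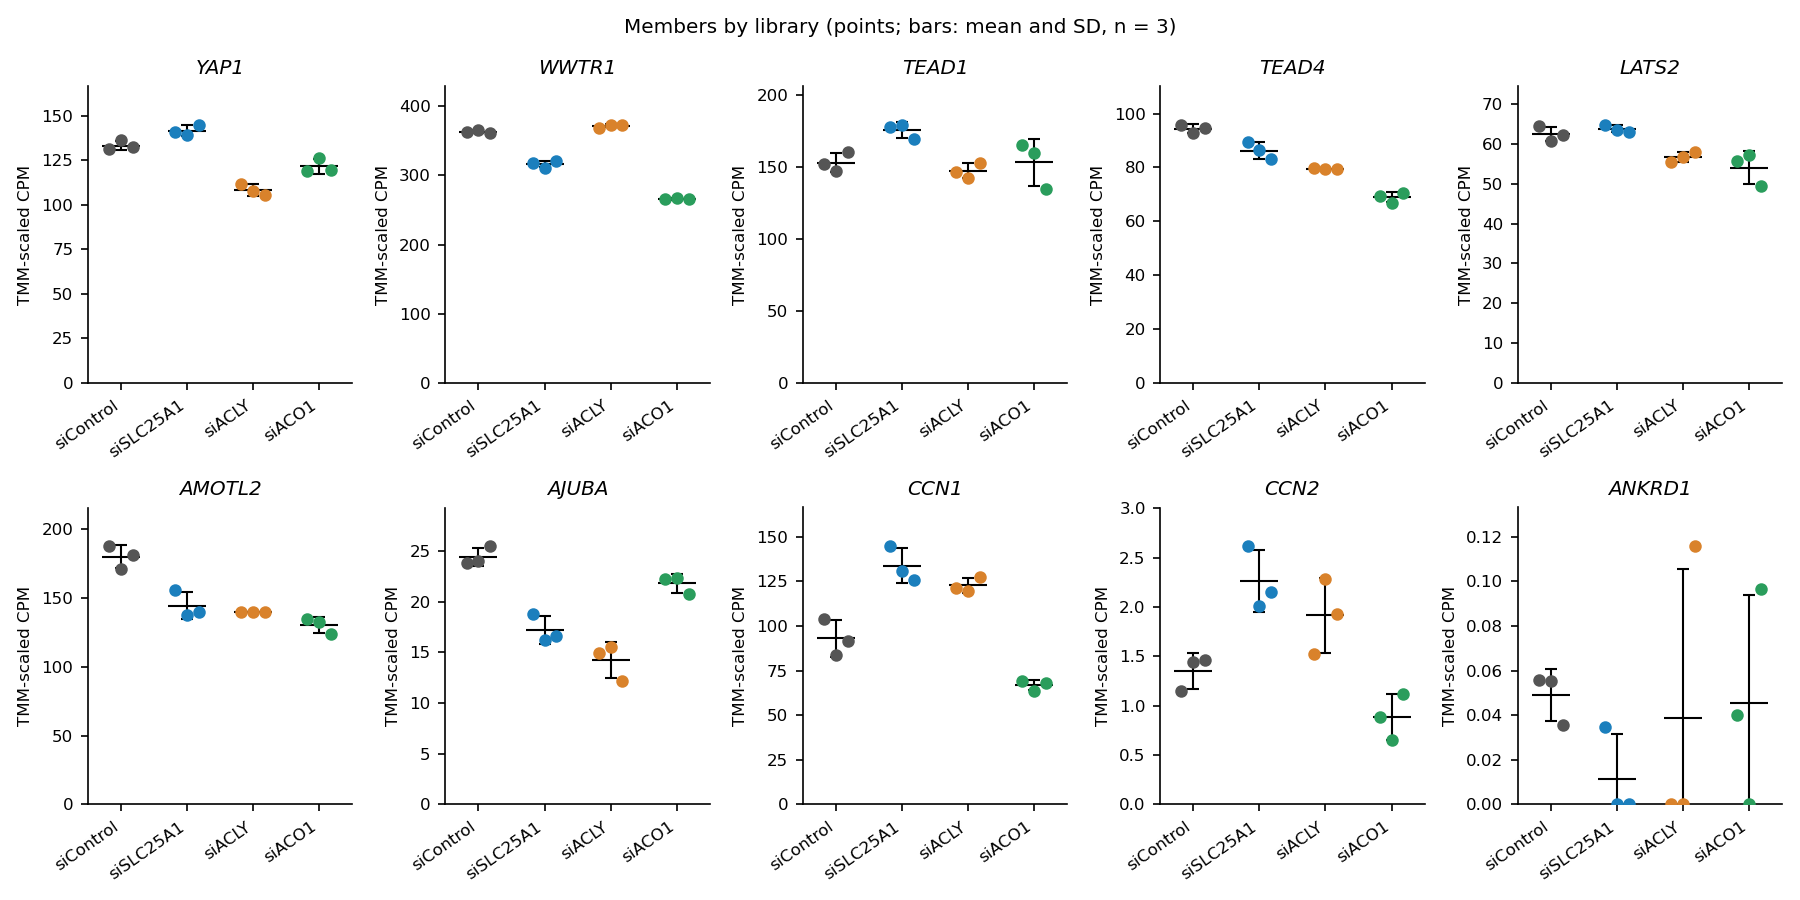
Levels in CPM (y axes, each from 0) of the 10 members by siRNA group (x axes), with 1 point per library and the mean and SD of 3 as a line and bar, which the axis cuts off below 0 for ANKRD1. The CCN1 and CCN2 panels show the siACO1 libraries below and the siSLC25A1 and siACLY libraries above the control libraries, and the ANKRD1 panel shows at most 3 counts per library.

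Each pair of knockdowns was then set side by side without the shared siControl libraries, so that each knockdown enters 2 comparisons. All 9 tested members were called between siSLC25A1 and siACO1, 8 higher under siSLC25A1 and AJUBA lower, where 42.1% of all genes were called, 21.8% higher and 20.3% lower. CCN1 was 2.00 times as high under siSLC25A1 as under siACO1 (log2 difference 1.00, SE 0.07, edgeR adjusted p = 1.64e-10). CCN2 differed by 1.35 (SE 0.25, adjusted p = 5.39e-05), WWTR1 by 0.25 (adjusted p = 1.92e-06), TEAD4 by 0.32 (adjusted p = 7.73e-07) and AJUBA by -0.34 (adjusted p = 0.00132). The smallest difference was that of AMOTL2, 0.15 (adjusted p = 0.0142), which was lost without siSLC25A1 replicate 1 (0.09, adjusted p = 0.147). It was also lost with library totals (0.10, adjusted p = 0.0971). TEAD1 differed by 0.20 (adjusted p = 0.00663), or by 0.12 without siACO1 replicate 3, and its call was lost with library totals (0.15, adjusted p = 0.0709). LATS2 differed by 0.24 (adjusted p = 0.000496) and YAP1 by 0.22 (adjusted p = 9.71e-05).

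Between siACLY and siACO1, 6 members were called where 42.1% of all genes were called, 21.4% higher and 20.7% lower, with CCN1, CCN2, WWTR1 and TEAD4 higher under siACLY and YAP1 and AJUBA lower. CCN1 differed by 0.88 (edgeR adjusted p = 1.23e-09), CCN2 by 1.08 (adjusted p = 0.000762), WWTR1 by 0.48 (adjusted p = 7.47e-12) and AJUBA by -0.61 (adjusted p = 5.52e-07). TEAD1, at -0.05 (adjusted p = 0.472), became called without siACO1 replicate 3 (-0.14, adjusted p = 0.00466). Between siSLC25A1 and siACLY, 6 members were called where 33.8% of all genes were called, 17.5% higher and 16.3% lower, with YAP1 (0.39, adjusted p = 2.92e-08), TEAD1 (0.25, adjusted p = 0.00118), TEAD4 (0.12, adjusted p = 0.0398), LATS2 (0.17, adjusted p = 0.0124) and AJUBA (0.27, adjusted p = 0.0142) higher under siSLC25A1 and WWTR1 lower (-0.23, adjusted p = 8.43e-06). The TEAD4 call was lost without siSLC25A1 replicate 1 or 2 or any siACLY library (adjusted p = 0.068 to 0.164), the LATS2 call without siACLY replicate 1 (adjusted p = 0.05), and the AJUBA call without siSLC25A1 replicate 1 or siACLY replicate 3 (adjusted p = 0.108 and 0.111). The targets CCN1 (0.13, adjusted p = 0.144), CCN2 (0.27, adjusted p = 0.383) and AMOTL2 (0.05, adjusted p = 0.507) were not called in that comparison. In a fit of these 2 groups alone CCN1 was called (0.13, adjusted p = 0.028), and with 1 library left out its difference ran from 0.066 without siSLC25A1 replicate 1 to 0.17. That of CCN2 ran from 0.11 without siACLY replicate 1 to 0.42 without siACLY replicate 2, and was 0.15 without siSLC25A1 replicate 1. Library totals moved the higher share of all calls there from 51.8% to 41.0%.

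The wider pathway was described with 3 gene lists, in which a list's count is read against the 19.6%, 36.7% and 37.1% of all genes called under siSLC25A1, siACLY and siACO1. Of 27 Hippo pathway components, 25 were tested, and 4 rose and 3 fell under siSLC25A1, 4 rose and 9 fell under siACLY, and 3 rose and 8 fell under siACO1, a count of 11 that fell to 7 without siControl replicate 1. The called shares of the tested components were 28%, 52% and 44%, the last near that of all genes. WWC1, the scaffold KIBRA that activates LATS, fell under siACO1 from 19.4 to 8.75 CPM (log2 change -1.15, edgeR adjusted p = 5.58e-11) and under siSLC25A1 (-0.43, adjusted p = 0.000626). Its paralog WWC2 fell under siACO1 (-0.41, adjusted p = 1.9e-07). FRMD6, an upstream FERM-domain activator of the kinases, rose under siSLC25A1 (0.42, adjusted p = 0.000396) and siACLY (0.39, adjusted p = 0.000306), and the giant cadherin FAT1 was called higher under siSLC25A1 (0.43, adjusted p = 0.0437), a call lost without any 1 of the 9 libraries of siControl, siSLC25A1 and siACLY (adjusted p = 0.0539 to 0.132).

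Of 17 other genes reported as YAP and TEAD targets, 1 of which (PTPN14) also stands among the components, 15 were tested, and 6 rose and 1 fell under siSLC25A1, 2 rose and 4 fell under siACLY, and 2 rose and 8 fell under siACO1. The called shares were 46.7%, 40% and 66.7%, against 19.6%, 36.7% and 37.1% of all genes, so that the count under siACLY was near the background. Under siACO1, 8 of 15 fell where 19.3% of all genes were called lower. Their median log2 change was 0.25, -0.07 and -0.20. Under siSLC25A1 the stress-response gene GADD45A rose from 81.7 to 137 CPM (0.74, edgeR adjusted p = 7.4e-06), and DOCK5 (0.33, adjusted p = 0.000316), a guanine nucleotide exchange factor for Rac, and ASAP1 (0.32, adjusted p = 8.37e-07), an Arf GTPase-activating protein, rose with it. Under siACLY DOCK5 rose again (0.43, adjusted p = 2.42e-06), while the receptor tyrosine kinase AXL fell (-0.40, adjusted p = 2.12e-09). Under siACO1 the kinase NUAK2 (-0.64, adjusted p = 0.00603) and ASAP1 (-0.36, adjusted p = 3.59e-08) fell and CCDC80 rose (0.59, adjusted p = 0.00242).

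SRF with its coactivators MRTF shares targets and cytoskeletal input with YAP. Of 15 SRF and actin genes 14 were tested, ACTG1 among them despite its counts near 0, and 4 rose and 2 fell under siSLC25A1, 6 rose and 4 fell under siACLY, and 6 rose and 2 fell under siACO1. All genes were called higher and lower at 10.3% and 9.27% under siSLC25A1, 18.4% and 18.3% under siACLY, and 17.8% and 19.3% under siACO1. TGFB1I1, the focal adhesion protein Hic-5, rose in all 3 (0.69, edgeR adjusted p = 2.23e-10, 1.05, adjusted p = 5.48e-15, and 0.86, adjusted p = 4.64e-13, in the order siSLC25A1, siACLY and siACO1). The tropomyosin TPM1 (0.45, adjusted p = 0.00294, or 0.33 and 0.0522 without siSLC25A1 replicate 2) and the LIM protein FHL2 (0.42, adjusted p = 3.35e-07) rose under siSLC25A1. TAGLN rose (0.89, adjusted p = 7.17e-08) and CNN2 fell (-0.63, adjusted p = 6.49e-12) under siACLY. Under siACO1 the myosin light chain MYL9 rose (0.58, adjusted p = 4.55e-09) and FHL2 fell (-0.48, adjusted p = 1.71e-08). The median log2 change of this list was 0.10, 0.10 and 0.14 under siSLC25A1, siACLY and siACO1, with 9, 8 and 7 of its 14 tested genes above 0. That of the 9 members was 0.03, -0.14 and -0.45 in the same order.

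Epithelial and mesenchymal markers moved with the groups. The summed level of the epithelial list was 3628 to 3763 CPM in siControl, 3141 to 3465 in siSLC25A1, 3834 to 3933 in siACLY and 2078 to 2194 in siACO1, and in the last KRT8, KRT18, KRT19 and MUC1 all fell. KRT8 and KRT18 make up most of that sum. KRT19 rose from 88.5 CPM in siControl to 121 under siSLC25A1 and 141 under siACLY, whereas MUC1 fell from 20.5 CPM to 14.4 and 10.4. Of the mesenchymal markers, CDH2 did not pass 0.0715 CPM in any library and was not tested. ZEB1, a transcription factor that represses epithelial genes, rose from 63.9 CPM to 100.3 under siSLC25A1 (log2 change 0.65, edgeR adjusted p = 1.18e-10). Under siACLY it rose to 96.8 (0.60, adjusted p = 2.22e-10), and under siACO1 it stood at 63.5 (-0.01, adjusted p = 0.913). VIM, an intermediate filament protein, rose from 3561 to 4558 CPM under siACLY (0.36, adjusted p = 2.18e-07) and was not called under siSLC25A1 (0.11, adjusted p = 0.0812) or siACO1 (0.02, adjusted p = 0.73). COL1A2 made up nearly all of the fibroblast list, which summed to 1546 to 1592 CPM in siACO1 and 875 to 895 in siControl. The part of these changes in the member results was not tested.

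**Figure D4:**
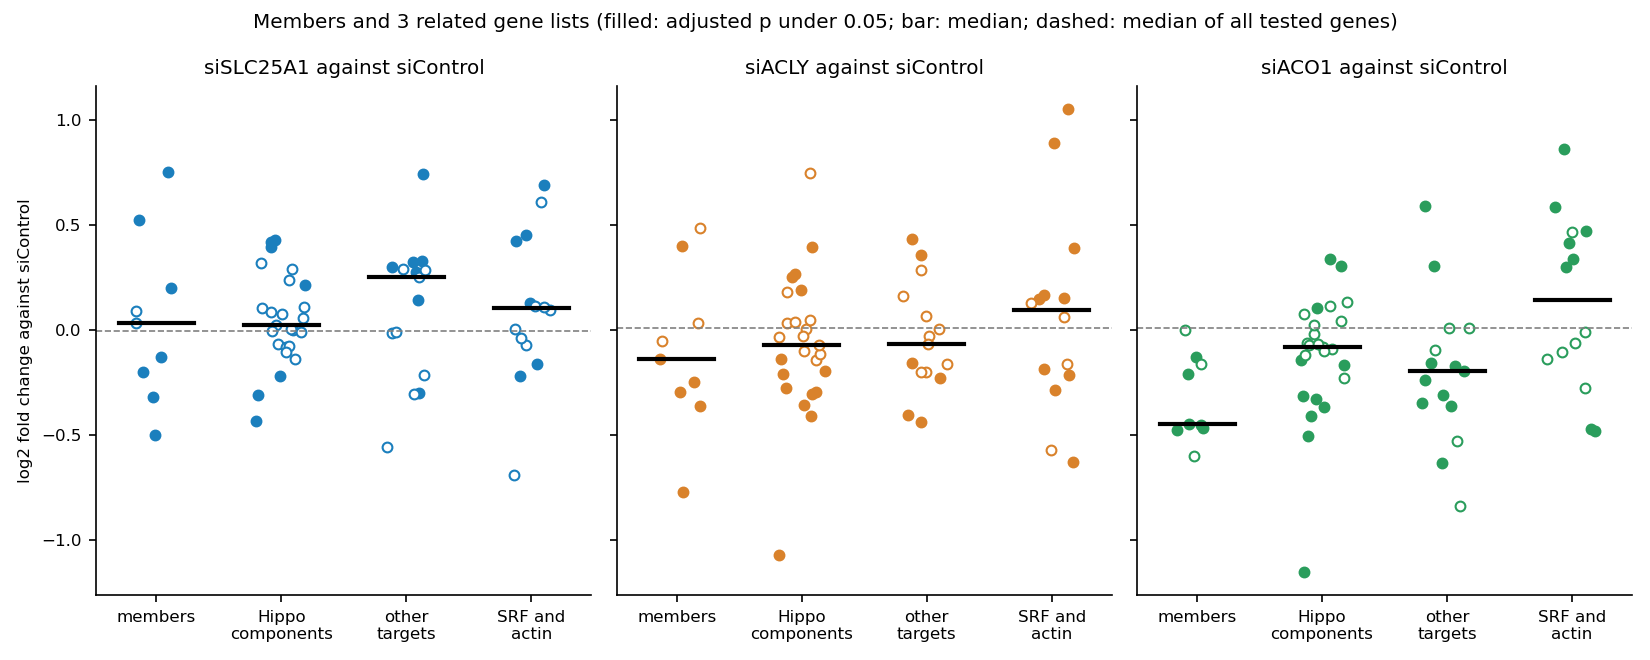
Log2 fold change against siControl (y axis) of each tested gene of 4 lists (x axis: members, Hippo pathway components, other YAP and TEAD targets, SRF and actin genes) in the 3 knockdowns; filled points were called, open points were not, the bar is the list's median and the dashed line the median of all tested genes. The median of the other targets is 0.25 under siSLC25A1 and -0.20 under siACO1.

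Genes whose levels ran most like those of a member were ranked by Pearson's correlation of log2 CPM over the 12 libraries among 9960 genes, as a description in which libraries of 1 group share their treatment. For YAP1 these were SSR3 (r = 0.977), PHF10 (0.975) and SPOPL (0.974). SPOPL stood at 35.4 CPM in siControl, 40.2 in siSLC25A1, 27.0 in siACLY and 30.4 in siACO1. For CCN1 they were NIBAN2 (0.986), ETS1 (0.985) and CTNNAL1 (0.980). The transcription factor ETS1 stood at 114 CPM in siControl, 144 in siSLC25A1, 136 in siACLY and 94.9 in siACO1. For CCN2 they were KLF4 (0.942), MCCC1 (0.942) and MAFF (0.940), with KLF4 at 20.4, 28.6, 27.3 and 16.2 CPM in the same order.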

How the data were processed

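Poly(A) RNA-seq of 12 MiaPaCa-2 libraries was used. The deposited table holds raw read counts per gene, whole numbers that the authors did not normalize. The submitters' processing notes list CASAVA, FastQC, Trim Galore, STAR 2.7.0e and DESeq2 with the builds GRCh38 and GRCm39; the counting tool, annotation release and strand setting are not given in the sources used here. Genes were filtered with edgeR's filterByExpr, scaled by TMM and tested in 1 quasi-likelihood fit over all 4 groups (edgeR 4.0.16, R 4.3.3) with Benjamini-Hochberg adjustment over 16197 genes. The test was run on counts simulated from the fitted means and spread, with changes planted for siSLC25A1 against siControl only. The model of the test therefore held by design. Of genes with a planted log2 change of 0.5, 66.7% were called, and of unchanged genes 0.0383%. Smaller planted changes, and a deviating library such as siACO1 replicate 3, were not simulated. Alternatives were DESeq2 1.42.0 as test and as size factors, library totals, other count filters, pairwise fits, a replicate block and each library left out. The members and lists were chosen with earlier results of these data known. Named genes are the 10 members, the 3 siRNA targets, member paralogs, the 3 called genes of each list with the largest change in each comparison with siControl, and the 3 genes most correlated with each of YAP1, CCN1 and CCN2. One gene that this rule names is not reported here. Gene positions and exon lengths come from GENCODE 29 and promoters from RefSeq. The labels do not say that equal replicate numbers share a culture or day, so the numbers were not treated as pairs. Deviations from the group means correlated at r from -0.034 to 0.0672 in 18 same-numbered pairs. In the other pairs of libraries from different groups r ran from -0.0719 to 0.0708. Whether equal numbers shared a batch is not known. No interval for a single library is given.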

Additional observations from a re-analysis of the deposited data

How the results depend on the processing

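Of 54 log2 changes of members, 40 were called, and 30 of these calls held in each of 19 alternatives, 12 of them with 1 library left out. Of the others, 10 calls were lost in at least 1 alternative and 3 changes became called, and no called member changed direction. A left-out library of a group outside a comparison bore on it only through the shared fit and scaling. The 19 alternatives therefore did not all bear equally on each call. Members called in siSLC25A1 against siControl ran from 4 to 7, with 4 without siControl replicate 1, and Hippo pathway components called in siACO1 against siControl from 7 to 11, with 7 without siControl replicate 1. With library totals as scaling, members called were 7, 5, 5, 4, 7 and 6 for siSLC25A1, siACLY and siACO1 against siControl, siSLC25A1 against siACLY, siSLC25A1 against siACO1, and siACLY against siACO1; with DESeq2 they were 7, 6, 6, 6, 9 and 6. With the replicate number as a block, members called were 7, 6, 6, 6, 9 and 6 and genes called 3270, 6038, 6093, 5592, 6893 and 6874, against 3173, 5944, 6008, 5472, 6823 and 6823 without it; no pair of same-numbered libraries correlated over 0.1, and 6 of 12 libraries correlated best with their own number. With the block the FAT1 call under siSLC25A1 was lost (adjusted p = 0.0873, edgeR).

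Direction changed for small, uncalled values, and the cause was not tested. For TEAD1 under siACO1, library totals gave 0.051, a minimum of 10 counts 0.00903 and a fit of 2 groups only 0.000424, and leaving out 1 library gave -0.059 to 0.083. SLC25A1 under siACLY was 0.015 with library totals. With 1 library left out, AMOTL2 between siSLC25A1 and siACLY ran from -0.012 to 0.086, AMOTL1 from -0.065 to 0.024 under siSLC25A1 and -0.028 to 0.084 under siACLY, LIMD1 under siSLC25A1 from -0.051 to 0.023, WWC1 under siACLY from -0.15 to 0.019, FAT1 under siACLY from -0.0031 to 0.096, FRMD6 under siACO1 from -0.047 to 0.090, AXL under siSLC25A1 from -0.024 to 0.0043 and TAGLN under siSLC25A1 from -0.18 to 0.054. Depth limits CCN2, at 20 to 75 counts per library, and ANKRD1, at 0 to 3.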
